A study of Homo sapiens with 6 samples.

Results

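The matrix metalloproteinases (MMPs) and the tissue inhibitors of metalloproteinases (TIMPs) form the enzyme and inhibitor pair that controls breakdown of the extracellular matrix. The genes described here were taken by symbol from a table of 60605 genes and number 10, of which 7 encode MMPs (MMP1, MMP2, MMP3, MMP9, MMP13, MMP14 and MMP16) and 3 encode inhibitors (TIMP1, TIMP2 and TIMP3). Their mRNA was measured by poly(A) RNA sequencing in MDA-MB-231, a line of human triple-negative breast cancer cells that is widely used as a model of invasion. Cells carrying a control hairpin (shControl, 3 libraries) were compared with cells carrying a hairpin against PUS1 (shPUS1, 3 libraries), to find genes downstream of this enzyme, which converts uridine in RNA to pseudouridine. In the study's methods the hairpins were delivered by lentivirus from a pLKO.1 vector and the cells kept under puromycin, which the controls therefore share. The hairpin in the sequenced cells is not named, so the 3 shPUS1 libraries are taken as 1 knockdown line. The labels call the libraries biological replicates without saying whether they came from separate infections, and p-values measure the spread between these libraries only.

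MMPs are zinc enzymes made as inactive zymogens, which are opened by removal or cleavage of a propeptide. Most are secreted and a few are anchored in the plasma membrane, where they cleave collagens, other matrix proteins and one another. TIMPs bind the active site as a tight complex, and the balance between the families is a classical theme in the study of tumour invasion. TIMP2 has an added role, since it links the membrane-bound MMP14 to the zymogen of MMP2 and allows its activation.

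The sequences on which the family rests are shown first, since MMP and inhibitor meet at them. The following coding stretches of 33 bases, from GENCODE 29 transcripts (GRCh38), encode the zinc site of the MMPs with the largest values or changes, written 5′ to 3′ with the codons of the 3 zinc-binding histidines in capitals. They lie at chr11:102795549-102795581 (MMP1, minus strand), chr11:102840535-102840567 (MMP3, minus strand) and chr14:22843283-22843315 (MMP14, plus strand), each within exon 5 of 10.
MMP1: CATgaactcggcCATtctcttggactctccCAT
MMP3: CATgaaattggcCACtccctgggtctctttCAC
MMP14: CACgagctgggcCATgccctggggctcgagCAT
In the inhibitors, the stretch shown starts at the codon of the first cysteine of the mature protein, in capitals, which sits over the zinc of the bound enzyme. It lies at chrX:47583485-47583517 (TIMP1, plus strand, exon 2), chr17:78924978-78925010 (TIMP2, minus strand, exon 1) and chr22:32802071-32802103 (TIMP3, plus strand, exon 1).
TIMP1: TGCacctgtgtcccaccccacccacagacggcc
TIMP2: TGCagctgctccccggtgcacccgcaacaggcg
TIMP3: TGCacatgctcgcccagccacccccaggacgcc
Of the 33 bases, 24 were identical between MMP1 and MMP3, 23 between MMP1 and MMP14 and 22 between MMP3 and MMP14. Between the inhibitors, 20 were identical for TIMP1 and TIMP2, 21 for TIMP1 and TIMP3 and 21 for TIMP2 and TIMP3. Despite this likeness, no stretch of 100 bases of the transcripts of 8 of the 10 genes occurs in the same direction in another gene. The exceptions are MMP2, with 1.55% of its stretches in AC007336.3, and TIMP2, with 1.78% in CEP295NL. The reverse strand was not searched. Genes on the opposite strand share 430 exonic bases with MMP9 (SLC12A5-AS1), 367 with TIMP2 (AC022966.1) and 150 with MMP1 (WTAPP1). They share 118 with MMP16 (AC090578.1) and 32 with MMP3 (WTAPP1).

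The deposited values are estimated counts and FPKM (fragments per kilobase of exonic length scaled to the total count of the library), and FPKM is used here wherever levels of different genes are set side by side. Libraries held 14241505 to 19625998 counts. shControl replicate 2 stood apart, with a Pearson's r of log2 CPM across genes of 0.9505 and 0.9521 with the other shControl libraries, where these had 0.981 with each other and the shPUS1 libraries 0.9872 to 0.9906. PUS1 itself (ENSG00000177192) was at 2.57, 4.66 and 2.18 FPKM in shControl replicates 1, 2 and 3 and at 1.13, 0.95 and 0.93 FPKM in the shPUS1 replicates, which gave a log2 fold change of -1.64 (SE 0.32, adjusted p = 0.0462 in the quasi-likelihood test of edgeR). DESeq2 gave an adjusted p of 0.000123. The edgeR call is lost without shControl replicate 1 (adjusted p = 0.0905) or without shPUS1 replicate 1, 2 or 3 (0.208, 0.253 and 0.192). The log2 fold change was -1.20 when shControl replicate 2 was left out (adjusted p = 0.00311 from edgeR). In the study, a western blot of MDA-MB-231 cells showed a marked loss of PUS1 protein with the hairpin. Of the markers of the line, VIM, CD44, EGFR, KRT8 and KRT18 were all present. In 2 of these 5, VIM and CD44, every shPUS1 library lay below every shControl library, as in 17.3% of all genes tested. VIM was at 400 to 498 FPKM in shControl and 286 to 339 FPKM in shPUS1 (log2 fold change -0.50, adjusted p = 0.0873 from edgeR). Of those low in the line, ESR1, PGR and CDH1 reached at most 0.04, 0.01 and 0.18 FPKM, with EPCAM at 2.21 to 3.12 and ERBB2 at 4.93 to 6.91 FPKM. Of the 4 leukocyte markers, PTPRC and CD3E reached at most 0.02 and 0 FPKM and CSF1R at most 0.76 FPKM, while CD68 was at 37.3 to 42.7 FPKM in shControl and 27.8 to 31.7 FPKM in shPUS1.

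Knockdown of PUS1 came with higher mRNA of the stromelysin MMP3 and of the inhibitor TIMP3, and no member passed the threshold in the other direction. Of the 8 members with enough counts to be tested, 2 rose and 0 fell past the threshold of edgeR's test (adjusted p under 0.05 together with a log2 fold change of 1 or more in size), where 0.888% of all 14748 genes tested rose and 0.481% fell. DESeq2 and limma gave the same 2 genes, and MMP14 was the member on the lower side with an unadjusted p under 0.05, 1 of 8, where 12.8% of all genes tested were lower at that level. At an adjusted p under 0.1, whatever the fold, there were 4 members (MMP1, MMP3, MMP14 and TIMP3), against 10.6% of all genes tested. In 4 members (MMP1, MMP3, TIMP2 and TIMP3) every shPUS1 library lay above every shControl library after scaling, and in 1 (MMP14) below, where the shares of all genes tested were 18.8% and 17.3%. The median log2 fold change was 0.36 over the 8 members and -0.03 over all genes tested. In bulk RNA such as this, fewer cells that express a gene and less RNA of it per cell cannot be told apart.

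**Figure D1:**
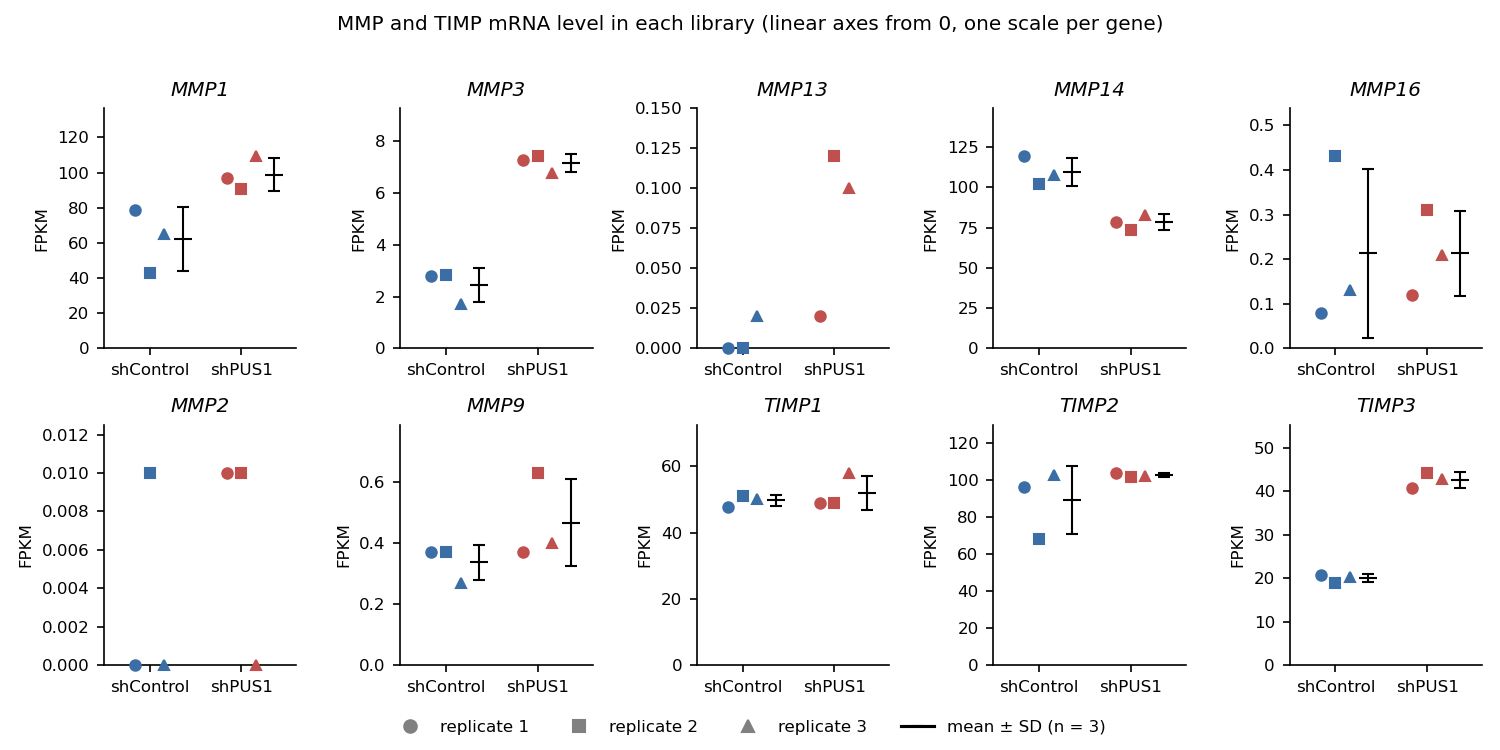
FPKM of each of the 10 genes in the 3 shControl (blue) and 3 shPUS1 (red) libraries, on linear axes from 0 with a scale for each gene; marker shapes give the replicate number, and black bars the mean ± SD (n = 3), not drawn for MMP2 and MMP13, which had too few counts to test. MMP1, MMP3 and TIMP3 lie higher and MMP14 lower in every shPUS1 library, while TIMP1 and MMP9 overlap between the groups.

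MMP1, MMP3 and MMP13 belong to the cluster of MMP genes on chromosome 11, which spans 435 kb from 102520508 to 102955732 in the deposited coordinates and holds 9 genes. MMP1 (ENSG00000196611, 102789401 to 102798160, minus strand) encodes interstitial collagenase, which cleaves fibrillar collagens. It was among the most abundant members, at 78.6, 42.8 and 65.0 FPKM in shControl replicates 1, 2 and 3 and at 96.97, 90.5 and 109 FPKM in shPUS1 replicates 1, 2 and 3. The groups did not overlap, and the lowest value was that of shControl replicate 2. The mean was 98.9 ± 9.49 FPKM in shPUS1 and 62.1 ± 18.1 FPKM in shControl (SD, n = 3 each). The log2 fold change of 0.70 (SE 0.20, adjusted p = 0.0952 from edgeR) does not pass the threshold. It was 0.50 when shControl replicate 2 was left out (adjusted p = 0.0285), and over all alternatives it lay between 0.49 and 0.90 (adjusted p from 0.019 to 0.298).

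MMP3 (ENSG00000149968, chromosome 11, 102835801 to 102843609, minus strand) lies 37640 bases from MMP1 and encodes stromelysin 1, which cleaves proteoglycans, laminin and fibronectin and opens the zymogens of other MMPs. Its FPKM was 2.80, 2.83 and 1.70 in shControl replicates 1, 2 and 3 and 7.28, 7.41 and 6.78 in the shPUS1 replicates. All shPUS1 libraries were well above the highest shControl library, from 215 to 252 counts against 45 to 103. The mean rose from 2.44 ± 0.644 to 7.16 ± 0.333 FPKM (SD, n = 3 each), which the fit gave as a 2.95-fold increase and a log2 fold change of 1.56 (SE 0.24, adjusted p = 0.0324 from edgeR), the 101st smallest p of all genes tested. DESeq2 gave an adjusted p of 1.2e-06. By edgeR the adjusted p was 0.0872 without shControl replicate 1 and 0.171, 0.222 and 0.163 without shPUS1 replicate 1, 2 and 3, with log2 fold changes of 1.54 to 1.65. In these fits few of all genes tested passed, with 11, 11, 6 and 0 higher and 0 lower in each. With shControl replicate 2 left out the log2 fold change of MMP3 was 1.70 (adjusted p = 0.00225 from edgeR). MMP3 stayed at a small share of the level of MMP1, with a ratio of FPKM of 0.0262 to 0.0661 in shControl and 0.0621 to 0.0819 in shPUS1, ranges that overlap.

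MMP13 (ENSG00000137745, chromosome 11, 102942995 to 102955732, minus strand), the collagenase best known from cartilage, had 0, 0 and 1 counts in the shControl libraries and 1, 6 and 5 in the shPUS1 libraries. It was left out of the test by the filter on low counts. Its groups overlapped, with 1 count in shControl replicate 3 and 1 in shPUS1 replicate 1, and no fold is given. The other genes of the cluster (MMP7, MMP8, MMP10, MMP12, MMP20 and MMP27) were likewise untested, and the highest count among the untested genes was 13, that of MMP10 in shControl replicate 3. MMP1 and MMP3 were therefore the only genes of the 9 that could be compared between the groups.

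MMP14 and MMP16 encode membrane-type MMPs, which act at the cell surface. MMP14 (ENSG00000157227, chromosome 14, 22836560 to 22849041, plus strand) cleaves collagen around the cell and, with TIMP2, activates the zymogen of MMP2. It was the most abundant member in shControl, at 119, 102 and 107 FPKM in replicates 1, 2 and 3, and was at 78.8, 73.3 and 83.0 FPKM in the shPUS1 replicates. Each of the shPUS1 values was below the lowest shControl value. The mean was 78.4 ± 4.88 FPKM in shPUS1 and 109.6 ± 8.71 FPKM in shControl (SD, n = 3 each), and the log2 fold change of -0.46 (SE 0.12, adjusted p = 0.0699 from edgeR) was under the fold threshold. It lay between -0.50 and -0.41 over all alternatives, with adjusted p from 0.00586 to 0.316, and was -0.49 without shControl replicate 2 (adjusted p = 0.0134). DESeq2 gave -0.46 with an adjusted p of 0.00712.

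MMP16 (ENSG00000156103, chromosome 8, 88032011 to 88328025, minus strand) was at or below 0.43 FPKM in all libraries. Its counts were 15, 101 and 23 in the shControl replicates and 27, 69 and 43 in the shPUS1 replicates, so that the highest and the lowest library were both shControl. The log2 fold change of -0.02 (SE 0.63, adjusted p = 0.986 from edgeR) had no stable sign, since it was 1.02 without shControl replicate 2 (adjusted p = 0.139) and 0.25 without shPUS1 replicate 1. A change of this gene was not detectable at this depth and spread.

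The gelatinases, which cleave denatured collagen and the type IV collagen of basement membranes, were near the floor of detection in these cells. MMP2 (ENSG00000087245, chromosome 16, 55389700 to 55506691, plus strand) had 0, 1 and 0 counts in shControl and 1, 1 and 0 in shPUS1, and no fold is given. MMP9 (ENSG00000100985, chromosome 20, 46008908 to 46016561, plus strand) was at 0.37, 0.37 and 0.27 FPKM in shControl replicates 1, 2 and 3 and at 0.37, 0.63 and 0.40 FPKM in the shPUS1 replicates. These values rest on 9 to 27 counts per library and overlap between the groups. The log2 fold change was 0.48 (SE 0.39, adjusted p = 0.451 from edgeR). SLC12A5-AS1, on the opposite strand, covers 18.4% of the exonic bases of MMP9, and whether the counting used strand is not given in the sources used here. The zymogen that MMP14 and TIMP2 are known to activate together was thus almost without mRNA in both groups.

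Among the inhibitors, TIMP3 rose while TIMP1 and TIMP2 did not pass the test. TIMP3 (ENSG00000100234, chromosome 22, 32801705 to 32863041, plus strand) differs from the other TIMPs in that it binds to the extracellular matrix, and it also inhibits ADAM17, the sheddase of TNF. It was at 20.8, 19.0 and 20.2 FPKM in shControl replicates 1, 2 and 3 and at 40.7, 44.2 and 42.8 FPKM in the shPUS1 replicates. The spread within each group was small beside the gap between them, also for shControl replicate 2. The mean rose from 19.97 ± 0.906 to 42.6 ± 1.77 FPKM (SD, n = 3 each), which the fit gave as a 2.17-fold increase and a log2 fold change of 1.12 (SE 0.11, adjusted p = 0.00899 from edgeR), the 11th smallest p of all genes tested. DESeq2 gave an adjusted p of 5.1e-19. By edgeR the adjusted p was 0.0553 without shControl replicate 1 and 0.107, 0.126 and 0.107 without shPUS1 replicate 1, 2 and 3, the fits in which few of all genes tested passed. The log2 fold change stayed between 1.06 and 1.14 in all alternatives. TIMP3 overlaps SYN3 on the opposite strand without sharing an exonic base.

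TIMP2 (ENSG00000035862, chromosome 17, 78852977 to 78925387, minus strand) was the most abundant inhibitor. It was at 96.5, 68.0 and 102.72 FPKM in shControl replicates 1, 2 and 3 and at 103.84, 101.66 and 102.2 FPKM in the shPUS1 replicates. The shPUS1 libraries were almost alike, with a coefficient of variation of 1.11%, against 20.8% in shControl, where replicate 2 was low. The groups overlapped in FPKM, but not after TMM scaling. The log2 fold change was 0.23 (SE 0.15, adjusted p = 0.361 from edgeR) and 0.08 without shControl replicate 2.

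TIMP1 (ENSG00000102265, chromosome X, 47582408 to 47586789, plus strand), a secreted inhibitor with low affinity for the membrane-type MMPs, was at 47.9, 51.0 and 50.2 FPKM in shControl replicates 1, 2 and 3. In the shPUS1 replicates it was at 49.1, 48.8 and 58.0 FPKM, and the groups overlapped. The log2 fold change was 0.09 (SE 0.13, adjusted p = 0.69 from edgeR) and was -0.00025 without shPUS1 replicate 3, the highest library. Its gene overlaps SYN1 on the opposite strand, again with no exonic base shared.

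**Figure D2:**
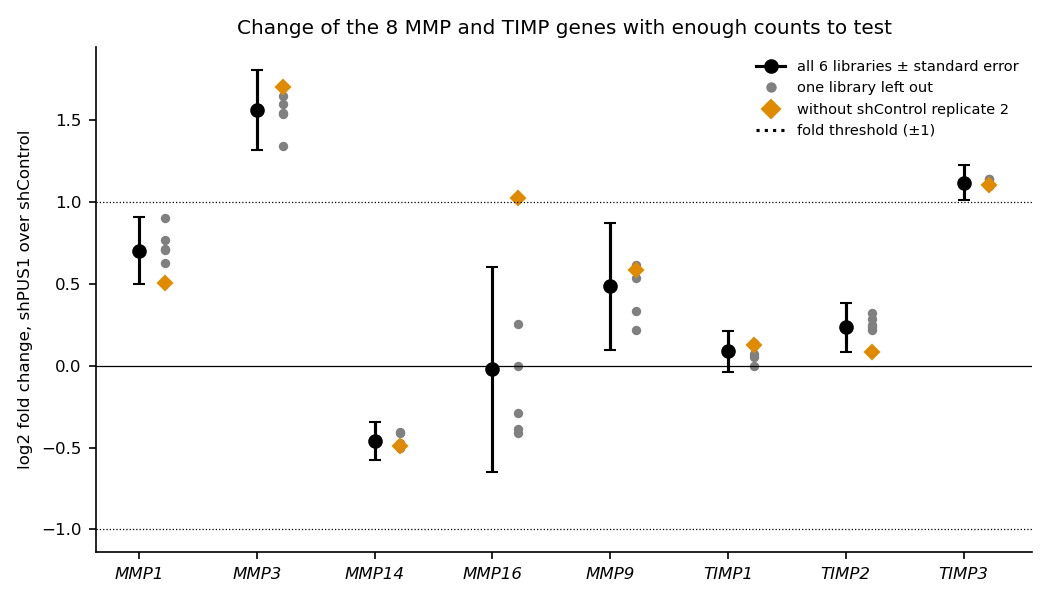
Log2 fold change of shPUS1 over shControl for the 8 genes tested; black points with bars give the edgeR fit of all 6 libraries ± standard error, grey points the fits with 1 library left out, orange diamonds the fit without shControl replicate 2, and dotted lines the fold threshold of 1. MMP3 and TIMP3 stay above 1 in each fit drawn, MMP14 stays below 0, and MMP16 moves from -0.02 to 1.02 without shControl replicate 2.

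The order of the levels changed at the top of the family. In shControl the means in FPKM ran from MMP14 (109.6) over TIMP2 (89.1), MMP1 (62.1) and TIMP1 (49.7) to TIMP3 (19.97), followed by MMP3 (2.44), MMP9 (0.337), MMP16 (0.213), MMP13 and MMP2. Here the ranges of MMP14 and TIMP2, of TIMP2 and MMP1, and of MMP1 and TIMP1 overlapped over the libraries, so that their ranges over libraries do not separate these neighbours, although MMP14 was above TIMP2 and TIMP2 above MMP1 within each shControl library. In shPUS1 the order was TIMP2 (102.6), MMP1 (98.9), MMP14 (78.4), TIMP1 (52.0) and TIMP3 (42.6), then MMP3 (7.16), MMP9 (0.467), MMP16 (0.213), MMP13 and MMP2. Only TIMP2 and MMP1 overlapped among the first 6. Such orders rest on the listed exonic lengths (2738 bases for MMP1, 4623 for MMP14 and 5633 for TIMP2), and other lengths were not tried. With these lengths, MMP14 was above MMP1 and TIMP2 in each shControl library and below both in each shPUS1 library.

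This exchange can be read from ratios within a library, which do not depend on scaling between libraries. Whether such a ratio lies above or below 1 does depend on the listed exonic lengths. The pairs were chosen after the values had been seen and are given without a test. MMP1 over MMP14 was 0.660, 0.419 and 0.605 in shControl replicates 1, 2 and 3 and 1.23, 1.24 and 1.32 in the shPUS1 replicates. MMP14 over TIMP2 was 1.24, 1.503 and 1.05 in shControl and 0.759, 0.721 and 0.812 in shPUS1. TIMP3 over TIMP2 was 0.215, 0.279 and 0.196 in shControl and 0.392, 0.435 and 0.419 in shPUS1. In none of these ratios did the groups overlap. MMP1 made up 35.0% ± 5.49 of the summed FPKM of the 7 MMPs in shControl and 53.4% ± 1.16 in shPUS1, while MMP14 made up 63.2% ± 4.94 and 42.3% ± 0.692 (SD, n = 3 each). TIMP3 made up 12.7% ± 1.06 of the summed FPKM of the 3 inhibitors in shControl and 21.6% ± 0.955 in shPUS1.

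The summed FPKM of the 7 MMPs was 201, 149 and 174.5 in shControl replicates 1, 2 and 3 and 183.5, 172 and 199.7 in the shPUS1 replicates, which overlap. The sum of the 3 inhibitors was 165, 138 and 173 in shControl and 194, 195 and 203 in shPUS1, with each shPUS1 library above each shControl library. The ratio of the MMP sum to the inhibitor sum was 1.22, 1.08 and 1.01 in shControl and 0.948, 0.884 and 0.984 in shPUS1, again without overlap, with means of 1.10 ± 0.107 and 0.939 ± 0.0502 (SD, n = 3 each). The sign of the difference between these means, -0.163, rests on MMP14. Without it the difference was 0.135, without TIMP2 it was -0.554, and without shControl replicate 1 it was -0.104. These are mRNA ratios and say nothing of the amounts of active enzyme or free inhibitor.

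**Figure D3:**
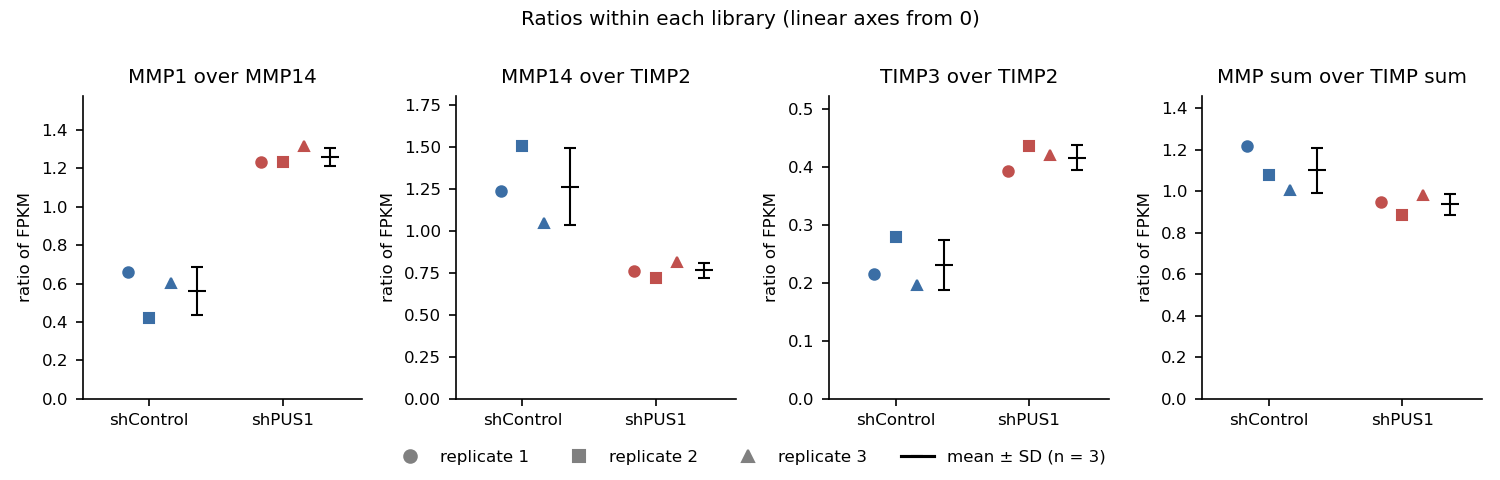
Ratios of FPKM within each library for MMP1 over MMP14, MMP14 over TIMP2, TIMP3 over TIMP2 and the sum of the 7 MMPs over the sum of the 3 inhibitors, on linear axes from 0; marker shapes give the replicate and black bars the mean ± SD (n = 3). The MMP1 to MMP14 ratio lies below 1 in all shControl and above 1 in all shPUS1 libraries, and the sums differ least, at 1.10 against 0.939.

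The promoters of MMP14 and TIMP3, 2 members with changes of opposite sign, are shown for their sequence. The table of RefSeq promoters (GRCh38.p14, 250 bases before to 50 after the start) held 3 of the 10 members, MMP14, TIMP1 and TIMP3. The bases before the start are printed 5′ to 3′ on the plus strand, at chr14:22836335-22836584 and chr22:32801455-32801704, with matches to the GC box GGGCGG on either strand in capitals.
MMP14: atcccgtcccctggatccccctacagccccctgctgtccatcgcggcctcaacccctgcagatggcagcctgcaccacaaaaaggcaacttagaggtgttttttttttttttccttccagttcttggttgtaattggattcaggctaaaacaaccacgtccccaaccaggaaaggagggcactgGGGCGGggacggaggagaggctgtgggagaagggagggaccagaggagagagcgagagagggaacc
TIMP3: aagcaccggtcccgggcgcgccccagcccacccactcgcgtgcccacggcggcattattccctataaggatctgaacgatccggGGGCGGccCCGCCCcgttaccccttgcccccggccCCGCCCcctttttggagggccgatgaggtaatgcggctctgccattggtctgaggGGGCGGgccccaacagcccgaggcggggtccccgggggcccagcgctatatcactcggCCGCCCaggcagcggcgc
The TIMP3 window held 5 matches, the first bases of which lie at -166, -158, -131, -76 and -18 from the start, MMP14 held 1, at -66, and TIMP1 held 2, at -135 and -45. At least 1 match was present in 45.0% and at least 5 in 5.14% of all 35116 promoters of this length. The AP-1 site TGAGTCA and the TATA box TATAAA, on either strand, were in none of these 3 windows and in 4.95% and 11.5% of all promoters. The share of G and C was 72.7% in TIMP3, 65.0% in TIMP1 and 55.0% in MMP14, with a median of 58.7% over all promoters. A match describes the letters of the window and is not evidence of a bound factor.

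Genes that act with the members were grouped in 5 lists, of which the first held the remaining MMP genes and TIMP4. Of its 17 genes 6 had enough counts to be tested. Past the threshold 1 rose and 0 fell, where 0.888% of all genes tested rose and 0.481% fell. The median log2 fold change was 0.18. MMP17, a membrane-type MMP held by a lipid anchor, was at 0.10, 0.06 and 0.12 FPKM in shControl replicates 1, 2 and 3 and at 0.32, 0.38 and 0.50 FPKM in the shPUS1 replicates. This is a low level, from 5 to 7 against 23 to 34 counts per library, but the groups did not overlap. Its log2 fold change was 2.09 (SE 0.41, adjusted p = 0.0462 from edgeR). The adjusted p was 0.102 without shControl replicate 1, 0.0574 without shControl replicate 3 and 0.201, 0.244 and 0.197 without shPUS1 replicate 1, 2 and 3. Without shControl replicate 2 the list had 2 genes higher (MMP17 and TIMP4) and 1 lower (MMP11). Of all genes tested, 246 were then higher and 251 lower. Voom called the same 2 higher, where 281 of all genes tested were higher and 260 lower. DESeq2, which gave MMP17 no adjusted p, called 0, with 2 at an unadjusted p under 0.05 (25.5% of all genes tested by edgeR). The inhibitor TIMP4 was at 1.12, 1.37 and 1.12 FPKM in shControl and at 2.85, 2.10 and 2.35 FPKM in shPUS1, with a log2 fold change of 1.03 that did not pass (adjusted p = 0.09 from edgeR). It passed without shControl replicate 2 (1.16, adjusted p = 0.0282) and by voom (1.18, adjusted p = 0.0369). Voom gave shControl replicate 2 a weight of 0.101, where the other libraries had 0.715 to 4.08. These settings are therefore not independent of each other. MMP15, another membrane-type MMP, had 10.6, 2.43 and 10.7 FPKM in shControl and 8.53 to 9.30 FPKM in shPUS1. Its log2 fold change of 0.23 (adjusted p = 0.769 from edgeR) became -0.20 without shControl replicate 2.

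Of 10 genes whose products open MMP zymogens, 6 were tested, and 0 rose and 0 fell past the threshold by edgeR, DESeq2 or limma, 3 having an unadjusted p under 0.05 by edgeR, as 25.5% of all genes tested did, with a median log2 fold change of 0.44. FURIN, the convertase that removes the propeptide of membrane-type MMPs, was at 19.3, 19.1 and 24.7 FPKM in shControl replicates 1, 2 and 3 and at 38.6, 41.3 and 35.3 FPKM in the shPUS1 replicates. The groups did not overlap, and the log2 fold change of 0.90 (SE 0.14, adjusted p = 0.0319 from edgeR) fell short only of the fold threshold. Leaving out shControl replicate 1 raised the adjusted p to 0.0872, and leaving out shPUS1 replicate 1, 2 or 3 to 0.175, 0.222 or 0.163. PLAU, the urokinase that generates plasmin, was at 117, 111 and 108 FPKM in shControl and at 94.9, 87.1 and 91.7 FPKM in shPUS1, below it in each library, with a log2 fold change of -0.27 (adjusted p = 0.176 from edgeR). PLAT, another plasminogen activator of the list and named after its values were seen, went the other way. It was at 23.55, 9.52 and 23.2 FPKM in shControl and at 32.35, 32.5 and 30.7 FPKM in shPUS1, without overlap. The log2 fold change of PLAT was 0.80 (adjusted p = 0.147 from edgeR), or 0.49 without shControl replicate 2 (adjusted p = 0.00858). The gene of plasminogen itself, PLG, was listed at 0 in all libraries.

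Of 12 genes for surface partners, inducers and other inhibitors of MMPs, 10 were tested and none passed the threshold by edgeR, DESeq2 or limma. An unadjusted p under 0.05 by edgeR was found for 3 of the 10, against 25.5% of all genes tested, namely CD44 and ITGAV, with the groups apart, and TFPI2, with groups that overlap. The median log2 fold change was 0.04. In 3 of the 10 (ITGAV, ITGB3 and CLDN1) every shPUS1 library was above every shControl library, in 2 (BSG and CD44) below, against 18.8% and 17.3% of all genes tested. ITGB3 and CLDN1, named after their values were seen, had log2 fold changes of 1.23 and 0.91 (adjusted p = 0.203 and 0.308 from edgeR). In both, shControl replicate 2 was the lowest library, at 0.88 and 2.22 FPKM. BSG, the surface protein that induces MMPs in neighbouring cells, was at 150 to 156 FPKM in shPUS1 and 162 to 179 FPKM in shControl (log2 fold change -0.16, adjusted p = 0.349 from edgeR). CD63, a tetraspanin that binds TIMP1, had overlapping groups and a log2 fold change of 0.10 (adjusted p = 0.641 from edgeR). RECK, a membrane-anchored MMP inhibitor named after its values were seen, was at 3.18 to 4.99 FPKM in shControl and 3.76 to 4.47 FPKM in shPUS1.

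The ADAM proteases share the zinc site of the MMPs and some are inhibited by TIMPs, above all by TIMP3. Of 9 genes 7 were tested, and 0 rose and 0 fell past the threshold by edgeR, DESeq2 or limma, 4 having an unadjusted p under 0.05 by edgeR against 25.5% of all genes tested, with a median log2 fold change of -0.43. ADAM9 was at 22.4, 20.6 and 22.9 FPKM in shControl and at 15.8, 16.2 and 15.4 FPKM in shPUS1, without overlap (log2 fold change -0.45, SE 0.10, adjusted p = 0.0603 from edgeR). For ADAM8 the log2 fold change was -0.55 (adjusted p = 0.266 from edgeR) and the groups overlapped, with shControl replicate 2 at 19.0 FPKM below all shPUS1 libraries. Leaving that library out gave -0.85 (adjusted p = 0.00172 from edgeR), and leaving out shControl replicate 3 gave -0.31 (adjusted p = 0.492). Voom, in which shControl replicate 2 had a weight of only 0.101, gave -0.74 (adjusted p = 0.00337). ADAM17, the sheddase inhibited by TIMP3 and named after its values were seen, was at 10.2, 6.20 and 9.84 FPKM in shControl and at 12.6, 12.0 and 12.0 FPKM in shPUS1. Its log2 fold change was 0.51 (adjusted p = 0.132 from edgeR), or 0.33 without shControl replicate 2. ADAM15, also named after its values were seen, had the smallest adjusted p of the list by edgeR (0.0526), at a log2 fold change of -0.70 without overlap. Its adjusted p was 0.00193 from DESeq2 and 0.271 from edgeR without shPUS1 replicate 2.

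AP-1 and ETS factors bind the promoters of several MMP genes, and all 13 genes of this list, which includes RUNX2, were tested. None passed both thresholds by edgeR, and 7 had an unadjusted p under 0.05 (25.5% of all genes tested). Their median log2 fold change was 0.40, and in 7 genes every shPUS1 library was above every shControl library, in 1 below, where the shares of all genes tested were 18.8% and 17.3%. FOSL1, an AP-1 member typical of mesenchymal breast cancer cells, was at 148, 229 and 183 FPKM in shControl replicates 1, 2 and 3 and at 151, 124 and 149 FPKM in the shPUS1 replicates. The groups overlapped, with a log2 fold change of -0.39 (adjusted p = 0.242 from edgeR) that was -0.19 without shControl replicate 2. ETS1 was at 100.45, 60.6 and 99.4 FPKM in shControl and at 126, 124 and 119.7 FPKM in shPUS1, without overlap, at a log2 fold change of 0.54 (adjusted p = 0.1248 from edgeR), or 0.34 without shControl replicate 2 (adjusted p = 0.024). Named after their values were seen, ELK3 was at 0.79 and ETS2 at 0.72 on the log2 scale (adjusted p = 0.0281 and 0.0336 from edgeR), under the fold threshold. JUND was at 62.6, 31.2 and 62.5 FPKM in shControl and at 105, 108 and 122 FPKM in shPUS1, with a log2 fold change of 1.13 (adjusted p = 0.0529 from edgeR). DESeq2 called JUND (adjusted p = 0.000515). Without shControl replicate 2 the log2 fold change of JUND was 0.88 (adjusted p = 0.0019 from edgeR), and by voom 0.89 (adjusted p = 0.00128). Both are under the fold threshold. Without shPUS1 replicate 2 the adjusted p by edgeR of ELK3, ETS2 and JUND were 0.222, 0.222 and 0.252, the highest of the alternatives run on each.

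**Figure D4:**
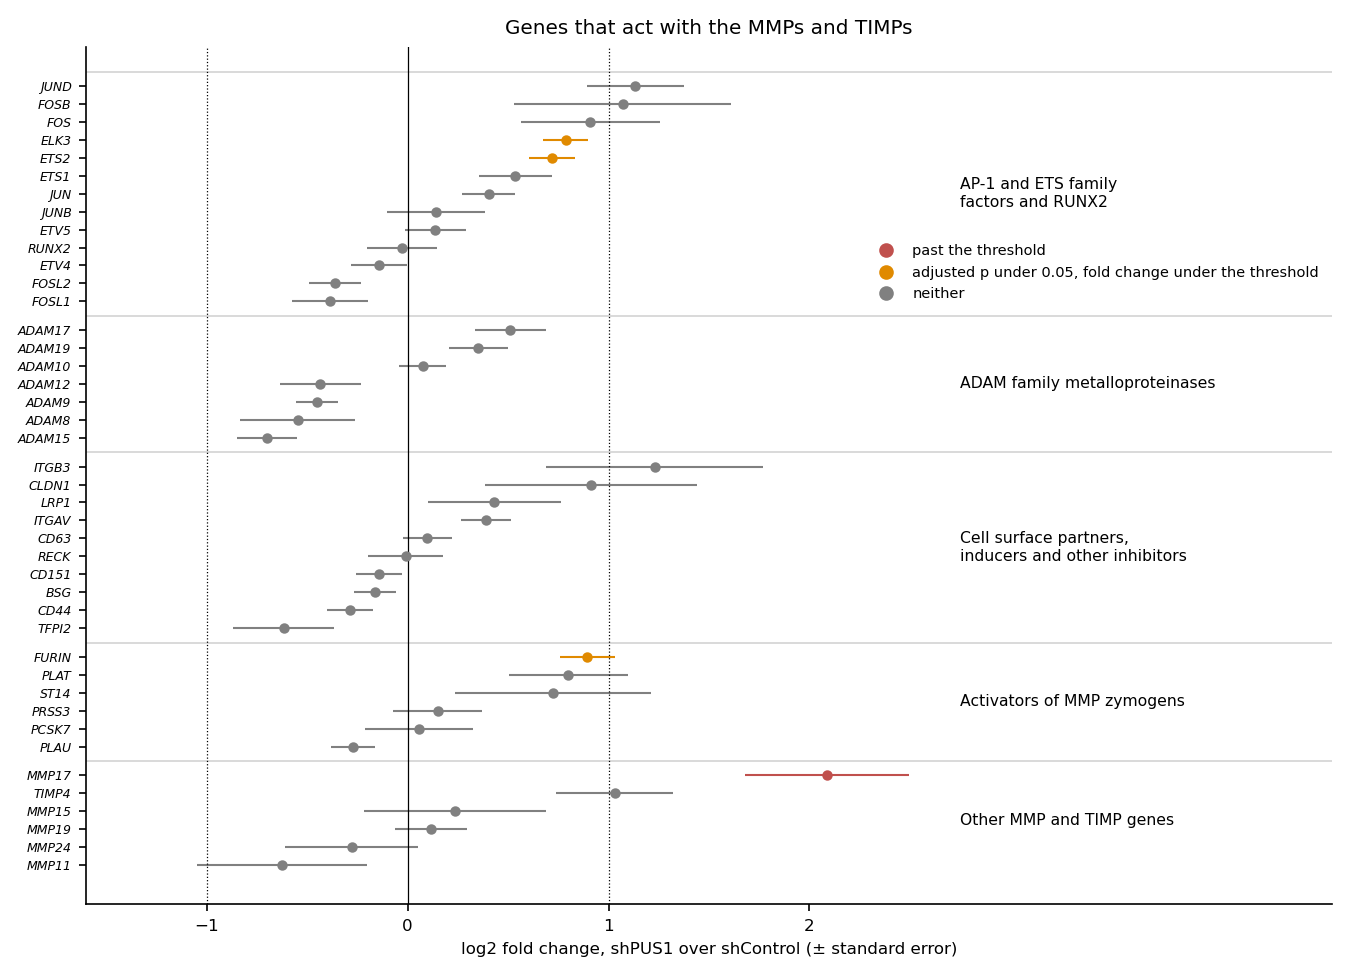
Log2 fold change of shPUS1 over shControl with its standard error for the tested genes of the 5 lists that act with the MMPs and TIMPs; dotted lines mark the fold threshold of 1, and colours show which genes passed an adjusted p of 0.05 alone (orange) or with the fold threshold (red). MMP17 at 2.09 is the gene past both thresholds, and FURIN, ELK3 and ETS2, at 0.90, 0.79 and 0.72, are past the first.

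Markers of fibroblasts, a cell type rich in MMPs and TIMPs, were measured beside these results. The 5 genes of the list summed to 2.13 to 8.33 FPKM in shControl and 12.0 to 13.8 FPKM in shPUS1, and the median log2 fold change of the 4 tested was 1.13. Past the threshold 1 of these 4 rose and 0 fell, where 0.888% of all genes tested rose and 0.481% fell. In 3 of the 4 every shPUS1 library was above every shControl library, in 0 below, against 18.8% and 17.3% of all genes tested. LUM rose, by 2.82 on the log2 scale (adjusted p = 0.0462 from edgeR). This is a low level, with 17, 3 and 8 counts in the shControl replicates and 62, 85 and 77 in the shPUS1 replicates. The adjusted p of LUM was 0.079 without shControl replicate 1, 0.0678 without shControl replicate 3 and 0.195, 0.245 and 0.189 without shPUS1 replicate 1, 2 and 3. COL1A1 was at 0.73 to 2.35 FPKM in shControl and 3.14 to 3.53 FPKM in shPUS1, without overlap. Its log2 change was 1.11, with an adjusted p of 0.11 from edgeR and of 0.0202 from DESeq2, which called it beside LUM. The lowest library of the sum, of COL1A1 and of PDGFRB was shControl replicate 2. Without it the COL1A1 change was 0.77 (adjusted p = 0.0123 from edgeR), under the fold threshold. PDGFRB was at 1.32 to 5.63 FPKM in shControl and 6.67 to 8.29 FPKM in shPUS1, also without overlap (adjusted p = 0.195 from edgeR), and COL3A1 overlapped at 0.02 to 0.40 FPKM. DCN was at or below 0.03 FPKM in all libraries. The summed endothelial markers were at 0.22 to 1.02 FPKM in shControl and 0.58 to 0.74 FPKM in shPUS1. The part of these genes in the rise of MMP3 and TIMP3 was not tested.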

How the data were processed

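Poly(A) RNA of MDA-MB-231 cells, 3 libraries with a control hairpin and 3 with a hairpin against PUS1, was sequenced in paired ends. Per the labels, the authors used HISAT2 and HTSeq 0.6.1. The genome build, annotation and strandedness are not given in the sources used here. The deposited estimated counts per gene were made by the authors without normalization, and 29.8% to 31.8% of those above 0 are not whole. The deposited FPKM were made by the authors from these counts, the listed exonic length and the library total. No per-sample column was left unused (0), and columns of gene annotation were not tested.

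Counts were rounded, filtered with filterByExpr, scaled by TMM (factors 0.973 to 1.032) and compared by edgeR 4.0.16 (quasi-likelihood test, R 4.3.3) with a prior count of 0.125 and Benjamini-Hochberg adjustment over 14748 genes, which held 99.85% to 99.89% of the counts. The biological coefficient of variation was 0.22. Calls needed an adjusted p under 0.05 together with a log2 fold change of 1 or more in size. Overlap of groups was judged on CPM after TMM scaling. Alternatives were DESeq2 1.42.0, its size factors, library totals, no filter, a mean FPKM of at least 1, limma 3.58.1 on log2(FPKM + 0.1) and log2(FPKM + 1), voom with sample weights, a replicate block and each library left out. Python 3.11.15, scipy 1.17.1 and pandas 2.3.3 were used for the rest.

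All members and PUS1 were named, and from each list the genes past the threshold and the 2 with the highest mean FPKM. The members, lists and pairs of genes were chosen with earlier results of these data known, and the direction of the lists is therefore no independent evidence. Coordinates of genes come from the deposited table and for 3 of the 10 members equal those of GENCODE 29 (GRCh38) at both ends and for the others differ at 1 or both ends. Sequences were read from that release and from RefSeq.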

Additional observations from a re-analysis of the deposited data

How the results depend on the processing

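MMP3 and TIMP3 were called in each alternative with all 6 libraries except the replicate block. With the replicate block 0 members were higher, at log2 fold changes of 1.597 for MMP3 (adjusted p = 0.0798) and 1.12 for TIMP3 (adjusted p = 0.0693), and 18 genes in all were higher and 0 lower, against 131 and 71 without it. The labels do not say whether libraries that share a number were handled together. Their deviations from the group means correlated at -0.0529, -0.0256 and -0.19, which cannot settle this with 3 libraries in each group. Leaving out single libraries gave 0 to 2 members and 0 to 246 genes higher, and 0 members and 0 to 251 genes lower. All genes higher and lower numbered 245 and 233 by DESeq2, 293 and 243 without the filter, 281 and 260 by voom, 68 and 44 by limma on log2(FPKM + 0.1) and 71 and 16 by limma on log2(FPKM + 1). At an adjusted p under 0.1 alone, 1 member (MMP14) counted as lower. PUS1 had an adjusted p of 0.0969 with the replicate block and of 0.0514 and 0.0544 in the limma fits. MMP16 changed sign to 0.226 with the replicate block, 1.02 without shControl replicate 2, 0.251 without shPUS1 replicate 1 and 0.717 by voom (-0.413 to 1.02 with single libraries left out), and TIMP1 to -0.0002521 without shPUS1 replicate 3. The difference in the MMP to TIMP ratio was 0.135 without MMP14 and -0.554 without TIMP2, and -0.209 to -0.104 with single libraries left out. The cause of these shifts was not tested. Groups of 3 were too small to test for outlying libraries, and MMP2, MMP13 and MMP9 had at most 27 counts in a library.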
